A study of Mus musculus with 6 samples.

Results

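The Schlafen genes were taken as the 7 members Slfn1, Slfn2, Slfn3, Slfn4, Slfn5, Slfn8 and Slfn9, found by symbol among the 17382 genes of the deposited table, and all 7 were present. The other Schlafen symbols there, Slfn10-ps, Slfn14, Slfn5os and Slfnl1, are given beside them. RNA came from bone marrow cells of 2-month-old C57BL/6 mice that had been kept in culture with M-CSF (40 ng/mL), which drives the growth of macrophages, for 3 days. There were 3 libraries labelled cKO (PD-L1 flox/flox with lysozyme-Cre, a Cre that is active in macrophages, monocytes and neutrophils) and 3 wild-type libraries (WT) from littermates that carried the floxed PD-L1 alleles without Cre. No sorting is described, so cells in which this Cre is silent can be present. The libraries are described as biological triplicates with no mouse named, so p-values here speak of the spread among these samples, part of which may be technical.

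Schlafen proteins share an N-terminal core that in several members binds or cuts transfer RNA, and many of their genes are induced by interferon. Mouse members fall into short proteins (Slfn1 and Slfn2), intermediate ones (Slfn3 and Slfn4) and long ones with a helicase-like C-terminal region (Slfn5, Slfn8 and Slfn9). In mice the family is best known for holding T cells and monocytes quiescent, through Slfn2, and for changing as monocytes become macrophages.

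Depth, recovered from the deposited values, was between 52.4 and 77.3 times 1000000 reads, and every member had between 504 and 23630 reads in each library. Levels are given as TPM, reads per gene length scaled to 1000000 per library. Macrophage genes were high in all libraries: Csf1r, the receptor of M-CSF, had 815 to 1450 TPM in the libraries labelled cKO and 1040 to 1520 TPM in WT. Lyz2, the lysozyme gene whose promoter gives the Cre its name, had 13200 to 19400 TPM in the libraries labelled cKO and 26700 to 40400 TPM in WT, so that these groups did not overlap, though it did not pass over all genes. Cd274, which encodes PD-L1, was not lower in the libraries labelled cKO, with 19.3, 19.2 and 29.2 TPM there and 17.9, 15.5 and 23.7 TPM in WT. This is the level of the whole gene; the floxed exons are not named in the sources used here, so it does not show whether that part was lost. The first principal component, with 44.3% of the variance, did not follow genotype. It set cKO 1, cKO 2 and WT 3 on its negative side and cKO 3, WT 1 and WT 2 on its positive side. Differences of the members within each side are therefore given beside the pooled ones. On each side 1 group is a single library, cKO 3 or WT 3, so these differences are descriptions only.

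None of the 7 Schlafen genes passed the test of genotype, and their levels spanned a wide range that both groups shared. Slfn2 was the most abundant, at 412 ± 11 TPM in the libraries labelled cKO and 352 ± 62 TPM in WT, and Slfn1 the least, at 15.6 ± 4.8 and 12.6 ± 3.7 TPM (SD, n = 3 each). In the limma test, 0 of the 7 members had an adjusted p under 0.05, as had 0 of all 13722 genes tested, a share of 0.0%. At an unadjusted p under 0.05 there were again 0 members, against 2.18% of all genes, and limma-voom on the recovered reads also gave 0 members. The log2 difference on log2(TPM + 0.1) was above 0 for 6 members and below 0 for Slfn3, with a median of 0.24 beside 0.003 over all genes tested, of which 51.1% were above 0. The members lie in one gene cluster and share sequence, so they are not separate replicates of an effect. The groups overlapped for each of the 7, where 5.12% of all genes had groups that did not overlap. The authors' deposited table likewise calls none of them, with an adjusted p of 1.0 for each, and calls 0.265% of all its genes. Its log2 fold changes for the members run from -0.0 for Slfn3 to 0.33 for Slfn8. At an unadjusted p under 0.05 the authors' deposited table has 0 members, against 3.23% of its genes; the smallest p there is 0.0955, for Slfn8.

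**Figure D1:**
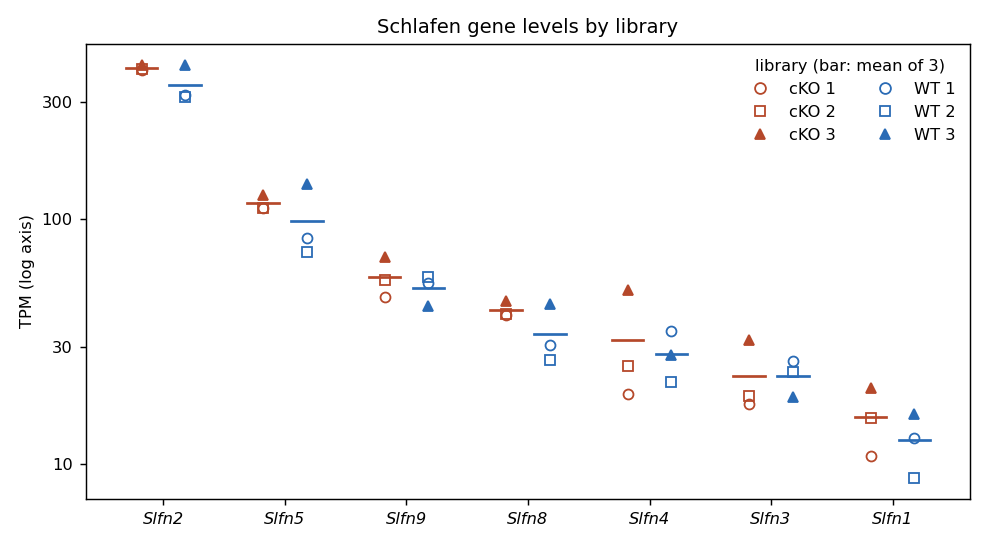
Points give the level of each Schlafen gene in TPM on a log axis, by library, with the libraries labelled cKO in red to the left of WT in blue and bars at the mean of 3. Slfn2 stands highest in both groups, and for every gene the points of the groups overlap.

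Of the short genes, Slfn2, whose loss in mice ends the quiescence of T cells and monocytes, occupies bases 83065112 to 83070678 of chromosome 11 (mm10, plus strand). It ranked 369th by mean level among all genes of the table. It had 405, 406 and 424 TPM in the libraries labelled cKO and 318, 313 and 423 TPM in WT. The cKO libraries lay close together, with a coefficient of variation of 2.60%, and WT 3 lay among them, while WT 1 and WT 2 were lower than the other 4 libraries. The log2 difference was 0.24 ± 0.13 (SE; limma adjusted p = 1.0), with a 95% interval of 0.954 to 1.47 as a fold. Within the negative and the positive side it was -0.06 and 0.43.

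Slfn1, the founding member, which slows growth when expressed in mouse thymocytes, lies between 83116845 and 83122659 on the same strand. It had 10.8, 15.5 and 20.5 TPM in the libraries labelled cKO and 12.8, 8.79 and 16.1 TPM in WT. The lowest and highest of these differed 2.33-fold. cKO 3 was the highest library and WT 2 the lowest, and the others alternated between the groups. The log2 difference was 0.30 ± 0.30 (SE; limma adjusted p = 1.0), with -0.31 and 0.94 within the negative and the positive side. Slfn2 had 28.1 ± 8.5 times the TPM of Slfn1 in the libraries labelled cKO and 28.9 ± 5.9 times in WT (SD, n = 3 each).

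The intermediate genes Slfn4 and Slfn3 lie next to each other, from 83175186 to 83190216 and from 83191330 to 83215154, on the plus strand. Slfn4 marks a suppressive myeloid population in the infected mouse stomach and falls as mouse bone marrow cells become macrophages. It had 19.4, 25.2 and 51.3 TPM in the libraries labelled cKO and 35.0, 21.7 and 28.0 TPM in WT. It varied most of the 7, 2.64-fold between the lowest and the highest library, both of which are labelled cKO. The log2 difference was 0.08 ± 0.37 (SE; limma adjusted p = 1.0); it was -0.34 within the negative and 0.89 within the positive side, and -0.32 without cKO 3.

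Slfn3, studied mainly in T cells and in gut epithelium of rodents, had 17.7, 19.0 and 32.1 TPM in the libraries labelled cKO and 26.4, 23.8 and 18.9 TPM in WT. All 3 libraries of the positive side were above all 3 of the negative side, as for 24.6% of all genes tested; in either direction 47.3% of genes divided the sides without overlap, so this is not particular to Slfn3. Its log2 difference by genotype was -0.05 ± 0.25 (SE; limma adjusted p = 1.0), and -0.04 and 0.36 within the negative and the positive side.

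Promoter sequences of the short and intermediate genes are shown because they share a run of bases that the long genes lack. These are the 100 bases before the start site in RefSeq's GRCm38.p6 windows, 5′ to 3′ on the strand of the gene, with the run ACTTCCTGG in capitals. In Slfn2 the capitals also cover a match to the ETS-IRF composite element (GGAA, any 2 bases, GAAA), which reads on the other strand and overlaps the run. All 4 windows lie on the plus strand of chromosome 11, and the start site of Slfn1 in RefSeq differs by 25 bases from that of the deposited table.
Slfn2 (chr11:83065012-83065111): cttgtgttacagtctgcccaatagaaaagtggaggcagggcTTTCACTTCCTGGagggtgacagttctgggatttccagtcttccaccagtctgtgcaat
Slfn1 (chr11:83116720-83116819): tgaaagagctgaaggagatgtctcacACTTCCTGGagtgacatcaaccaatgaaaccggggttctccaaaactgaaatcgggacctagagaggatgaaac
Slfn4 (chr11:83175086-83175185): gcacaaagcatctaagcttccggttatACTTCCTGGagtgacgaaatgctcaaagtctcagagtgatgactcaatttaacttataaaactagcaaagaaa
Slfn3 (chr11:83191230-83191329): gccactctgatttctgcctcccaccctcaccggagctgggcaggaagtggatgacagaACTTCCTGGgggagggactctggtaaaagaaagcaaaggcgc

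The run begins 55 bases before the start site in Slfn2, 74 in Slfn1, 73 in Slfn4 and 42 in Slfn3. It is the longest run common to these 4 windows, found by comparing them with each other. Its reverse strand holds GGAA, the core that ETS factors such as the myeloid factor PU.1 read. Of 32851 windows of 300 bases (250 before to 50 after a start site), 0.843% hold the run on either strand, and none of those of Slfn5, Slfn8 and Slfn9 does. The composite element was present in 2.72% of all windows and, of the 7 members, in Slfn2 alone. In coding sequence, pairs of these 4 genes were 71.7% (Slfn1 and Slfn2) to 92.2% (Slfn3 and Slfn4) identical where aligned, against 61.0% to 67.8% between one of them and a long gene. Coding length was 1134 bases for Slfn2 and 1011 for Slfn1, against 1806 for Slfn4 and 1920 for Slfn3.

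Among the long genes Slfn5, which responds to type I interferon in mouse and human cells, was the second most abundant member. It spans 82952102 to 82964850 on the plus strand and had 111, 111 and 125 TPM in the libraries labelled cKO and 83.9, 73.0 and 138 TPM in WT. WT 3 was the highest of the 6 libraries, and WT 1 and WT 2 the lowest. The mean was 116 ± 8 TPM in the libraries labelled cKO and 98.3 ± 34.7 TPM in WT (SD, n = 3 each). The log2 difference was 0.29 ± 0.23 (SE; limma adjusted p = 1.0), with -0.31 and 0.67 within the negative and the positive side. Slfn5os, an antisense gene that overlaps Slfn5, had 1 read in WT 3 and 0 in the other libraries.

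Slfn8 lies from 83002158 to 83020810 on the minus strand and had 40.6, 41.1 and 46.2 TPM in the libraries labelled cKO and 30.6, 26.5 and 44.8 TPM in WT. As for Slfn2 and Slfn5, WT 3 lay with the cKO libraries and WT 1 and WT 2 below all other libraries. Its log2 difference of 0.36 ± 0.19 was the largest of the 7 (SE; limma adjusted p = 1.0), with -0.13 and 0.69 within the negative and the positive side.

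Slfn9, the close relative of Slfn8, lies from 82980303 to 82991830 on the minus strand. Slfn8 and Slfn9 are usually grouped with human SLFN11 and SLFN13, of which the human SLFN11 protein sensitises cells to DNA damage. Slfn9 had 47.9, 56.4 and 70.2 TPM in the libraries labelled cKO and 54.7, 58.2 and 44.1 TPM in WT. Its order of libraries differed from that of Slfn8: WT 3 was the lowest of the 6 and WT 2 the second highest. The log2 difference was 0.14 ± 0.17 (SE; limma adjusted p = 1.0), with 0.24 and 0.32 within the negative and the positive side.

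**Figure D2:**
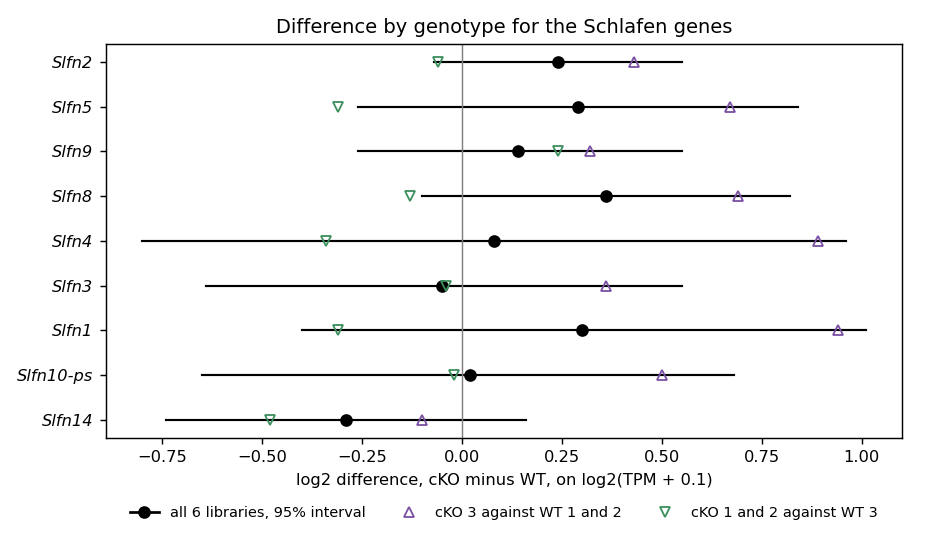
Black points give the log2 difference of each Schlafen gene, cKO minus WT, with its 95% interval from limma over 6 libraries, and open triangles the differences within each side of the first principal component. Every interval includes 0. Within the positive side 7 of the 7 members have a difference above 0, and within the negative side 6 have one below 0, all but Slfn9. The positive side sets cKO 3 alone against WT 1 and WT 2, and the negative side cKO 1 and cKO 2 against WT 3 alone. The members share these libraries, so the counts are not separate observations. The share of all genes with a difference in the same direction within each side was not counted.

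The promoters of the long genes are printed because each holds a match to the core of the interferon-stimulated response element, GAAA, any 2 bases and GAAA, searched on both strands. The windows cover the 100 bases before the start site of Slfn8 and Slfn9, and the bases from 200 to 101 before that of Slfn5, with the match in capitals. In Slfn8 and Slfn9 it reads on the other strand. The windows are again from RefSeq's GRCm38.p6, 5′ to 3′ on the gene's strand, which is plus for Slfn5 and minus for Slfn8 and Slfn9.
Slfn5 (chr11:82951902-82952001): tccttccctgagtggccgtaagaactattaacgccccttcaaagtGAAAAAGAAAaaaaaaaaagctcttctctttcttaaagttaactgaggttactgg
Slfn8 (chr11:83020811-83020910): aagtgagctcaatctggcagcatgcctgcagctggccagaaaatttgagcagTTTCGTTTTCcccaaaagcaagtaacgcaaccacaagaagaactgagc
Slfn9 (chr11:82991831-82991930): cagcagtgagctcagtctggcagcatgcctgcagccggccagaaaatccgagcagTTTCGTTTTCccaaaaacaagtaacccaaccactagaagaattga

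The match begins 155 bases before the start site in Slfn5, 48 in Slfn8 and 45 in Slfn9. It was found in 3.44% of all windows and, of the 7 members, in these 3 alone. The windows of Slfn1, Slfn2, Slfn3 and Slfn4 did not hold it. Beside that share stand the promoters of the interferon lists described below, where 12 of 20 windows of type I interferon-induced genes and 10 of 14 of interferon gamma-induced genes held it. The gamma-activated site (TTC, any 3 bases, GAA), present in 8.30% of all windows, was not among the letters of any member's window. The promoter windows of Slfn8 and Slfn9 had 248 identical bases among 292 aligned, or 84.9%, and their coding sequences, 2730 bases each, were 92.7% identical where aligned. Slfn5, with a coding length of 2652 bases, was 64.6% identical to Slfn8.

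Levels of Slfn5 and Slfn8 kept nearly the same ratio in each library, while those of Slfn9 and Slfn8 did not. Slfn5 had 2.73, 2.69 and 2.70 times the TPM of Slfn8 in the libraries labelled cKO and 2.74, 2.75 and 3.08 times in WT, a span of 1.14-fold. The ratio of Slfn9 to Slfn8 was 1.18, 1.37 and 1.52 in the libraries labelled cKO and 1.79, 2.19 and 0.985 in WT, a span of 2.23-fold. WT 2 had the highest and WT 3 the lowest of these, so the groups overlapped. For Slfn4 over Slfn3 the ratio was 1.10, 1.33 and 1.60 in the libraries labelled cKO and 1.32, 0.912 and 1.48 in WT. These pairs were chosen after the values were seen, and no test was made of them.

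**Figure D3:**
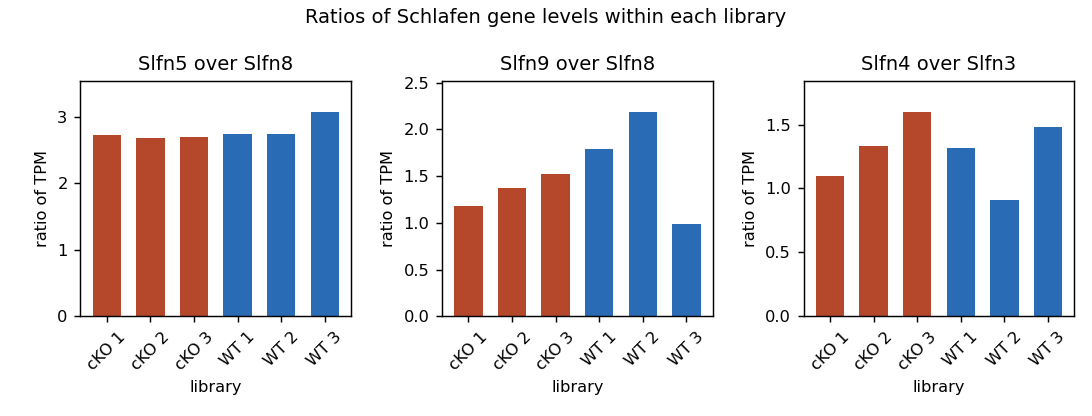
Bars give the ratio of TPM of a pair of Schlafen genes within each library, with the libraries labelled cKO in red to the left of WT in blue and each axis starting at 0. The ratio of Slfn5 to Slfn8 spans 1.14-fold over the 6 libraries and that of Slfn9 to Slfn8 2.23-fold.

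Near-identical sequence can split or lose reads between these genes, and how the authors counted such reads is not given in the sources used here. Of all runs of 50 bases in the annotated transcripts, 14.6% of those of Slfn8 and 11.2% of those of Slfn9 also occurred in another Schlafen gene, mainly in each other and in the pseudogene Slfn10-ps. The share was 8.15% for Slfn4, 7.39% for Slfn3, 4.27% for Slfn2, 0.606% for Slfn1 and 0.0% for Slfn5. With runs of 100 bases it was 3.71% for Slfn9 and 3.38% for Slfn8, and under 1% for each of the other 5 members. The levels of Slfn8, Slfn9, Slfn3 and Slfn4 are uncertain by the reads that fall there. Slfn10-ps, annotated as a transcribed pseudogene, had 14.4, 13.2 and 26.4 TPM in the libraries labelled cKO and 18.9, 18.4 and 13.9 TPM in WT, and like Slfn3 it was higher in all libraries of the positive side.

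The order of the members by level was Slfn2, Slfn5, Slfn9, Slfn8, Slfn4, Slfn3 and Slfn1. The ranges of Slfn2 and Slfn5 over the 6 libraries did not overlap, nor did those of Slfn5 and Slfn9. Below these, neighbours in the order overlapped: Slfn9 exceeded Slfn8 in 5 of 6 libraries, Slfn8 exceeded Slfn4 in 4, and Slfn4 exceeded Slfn3 in 5, while Slfn3 exceeded Slfn1 in 6 of 6 although their ranges overlapped. Slfn2 made up 59.2 ± 3.6% of the summed TPM of the 7 in the libraries labelled cKO and 58.6 ± 1.7% in WT, and Slfn5 16.6 ± 0.4% and 16.1 ± 2.9% (SD, n = 3 each). The sum was 653, 674 and 769 TPM in the libraries labelled cKO and 562, 525 and 713 TPM in WT, with WT 3 between cKO 2 and cKO 3.

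The 7 genes span 263 kb of chromosome 11, and none of the genes tested around them passed, as none did among all genes tested. AI662270, 8.42 kb beyond Slfn3, had 314 ± 20 TPM in the libraries labelled cKO and 306 ± 31 TPM in WT, and Ap2b1, an adaptor of clathrin-coated vesicles 87.5 kb beyond it, 135 ± 2 and 139 ± 3 TPM (SD, n = 3 each). On the other flank Unc45b, a myosin chaperone 8.70 kb before Slfn5, had 0.0332 ± 0.0320 TPM in the libraries labelled cKO and 0.0310 ± 0.0072 TPM in WT. Nle1, 43.7 kb before Slfn5, had 12.2 ± 3.8 and 13.3 ± 4.8 TPM. Of 19 neighbours within 250 kb 16 were tested, and 0 passed the limma test over all genes, with 0 at an unadjusted p under 0.05; 6 had a log2 difference above 0 and 9 below. Slfn14, which acts in platelets and red cells of mice and humans and lies beyond this cluster's last member, had 0.337, 0.286 and 0.367 TPM in the libraries labelled cKO and 0.395, 0.408 and 0.472 TPM in WT. It was the only Schlafen gene of the table whose groups did not overlap, which held for 5.12% of all genes tested. Its reads numbered 37, 29 and 33 in the libraries labelled cKO and 31, 47 and 50 in WT, and the log2 difference of -0.29 ± 0.19 did not pass (SE; limma adjusted p = 1.0). The 8 erythroid markers, all with a negative log2 difference and a median of -0.39, summed to 62.6, 41.4 and 75.6 TPM in the libraries labelled cKO and 112, 76.8 and 65.2 TPM in WT; their part in the value of Slfn14 was not tested. In bulk RNA fewer cells of a type and less RNA per cell cannot be told apart. Slfnl1, on chromosome 4, had at most 5 reads in any library.

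**Figure D4:**
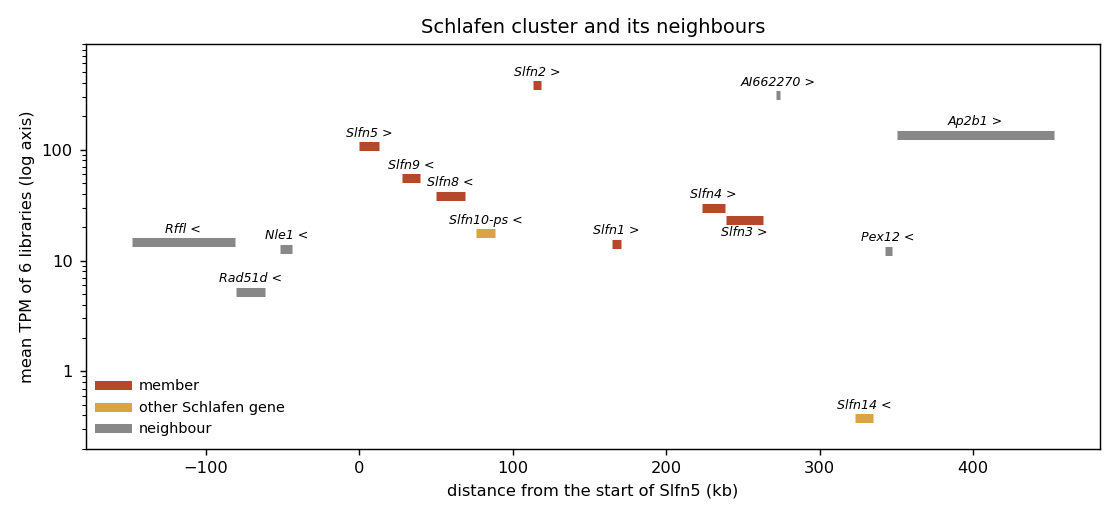
Each bar is a gene placed by its distance from the start of Slfn5 in kb. Its position on the log axis is its mean TPM over the 6 libraries, and arrows give the strand. Neighbours under 5 TPM are left out, as are Zfp830 and Lig3, which lie 184 kb and 148 kb before Slfn5. Slfn2 stands highest and Slfn1 lowest of the 7 members, and Slfn14 lies below them, beyond Slfn3.

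Slfn2, Slfn5 and Slfn8 shared an arrangement of libraries that many interferon genes had too: WT 1 and WT 2 were below the other 4 libraries, WT 3 included. It was noticed in the values and is given as counts only. It held for 3 of the 7 members and for 9.49% of all genes tested, and for 16 of 28 measured type I interferon-induced antiviral genes, 15 of 19 interferon gamma-induced genes and 8 of 15 genes of interferon signalling. Most genes of these lists had a pooled log2 difference above 0, without a gene that passed. These were 26 of the 28 type I genes (median 0.29), 19 of the 19 gamma genes (median 1.17) and 14 of the 15 signalling genes (median 0.14). For the type I list the mean log2 level was 5.25, 5.36 and 5.89 in cKO 1, cKO 2 and cKO 3, and 5.49 in WT 3. For the signalling list it was 6.02, 6.04 and 6.15, and 6.05 in WT 3. Only for the gamma list was every library labelled cKO above every WT library in mean log2 level. The gamma list had 18 genes whose groups did not overlap, the signalling list 3, the type I list 1 and the Schlafen genes 0, where the share of all genes was 5.12%. In those 18 gamma genes WT 3 lay below every library labelled cKO, whereas in Slfn2, Slfn5 and Slfn8 it did not. The counts of the arrangement do not separate these cases, because they do not ask where WT 3 lies among the 4 higher libraries. Irf9, the DNA-binding part of the type I interferon complex, had 72.1, 72.1 and 75.6 TPM in the libraries labelled cKO and 66.4, 59.0 and 77.8 TPM in WT, with WT 3 highest as for Slfn5. Irf1, a factor downstream of interferon gamma, had 74.4 ± 7.0 TPM in the libraries labelled cKO and 39.5 ± 12.5 TPM in WT (SD, n = 3 each). Irf1 did not pass over all genes, and its groups did not overlap.

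**Figure D5:**
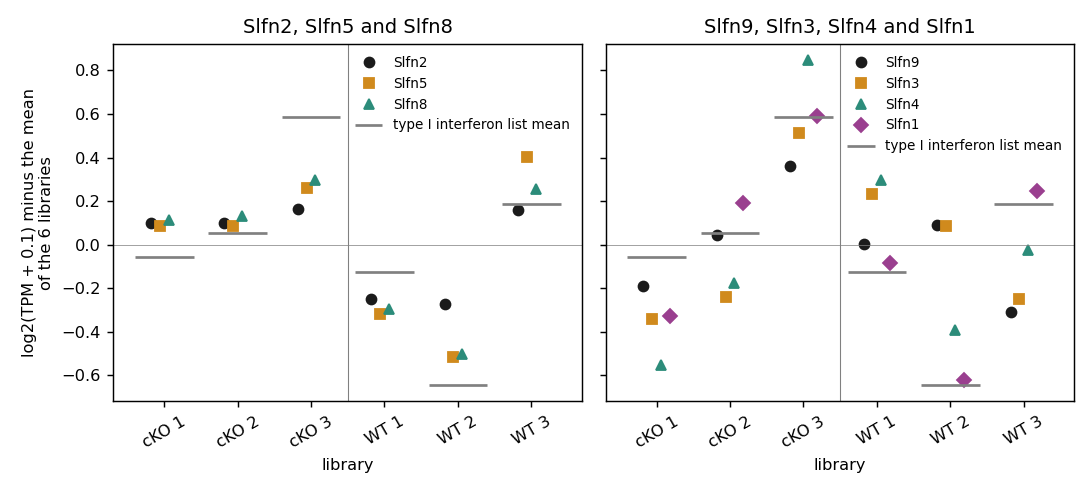
Points give log2(TPM + 0.1) of each Schlafen gene minus its own mean over the 6 libraries, by library, with cKO left of WT; grey bars give the mean of the type I interferon-induced genes treated in the same way. In the left panel WT 1 and WT 2 lie below the other 4 libraries for Slfn2, Slfn5 and Slfn8, and in the right panel the 4 other members each reach their highest value in cKO 3.

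The members' differences were small beside those of the interferon gamma genes with the smallest p, none of which passed over all genes either. Those genes were picked by p and the members were not, so part of this contrast follows from the choice. Iigp1, a GTPase that attacks the vacuoles of parasites, averaged 56.0 ± 42.5 TPM in the libraries labelled cKO and 4.13 ± 2.47 TPM in WT (SD, n = 3 each), and the log2 difference was 3.61. Gbp2, a GTPase of cell-autonomous immunity, had 43.4, 62.0 and 95.1 TPM in the libraries labelled cKO and 9.37, 6.76 and 20.9 TPM in WT. Both were lowest in WT 2 and highest in cKO 3 with no overlap of the groups, where each Schlafen gene overlapped. The most abundant gene of that list, the immunoproteasome subunit Psmb8, had 283 ± 31 TPM in the libraries labelled cKO and 225 ± 8 TPM in WT (SD, n = 3 each). Its log2 difference was 0.32, beside 0.36 for Slfn8. Among the type I genes Bst2, which tethers budding virus, had 477 ± 83 TPM in the libraries labelled cKO and 391 ± 26 TPM in WT, and Ifi27l2a 275 ± 31 and 310 ± 106 TPM. Ifi44, with 7.80 ± 4.05 and 3.19 ± 1.69 TPM, was the type I gene whose groups did not overlap.

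cKO 3 was the highest library for 6 of the 7 members, all but Slfn5, and for the mean log2 level of each of the 3 interferon lists. It also had the most extreme value of the 6 libraries on the first and the second principal component, 31.8 and 28.3. The share of all genes that were highest in cKO 3 was not counted, so this is not shown to be particular to these genes. The genes most like each member were named by Pearson's r of log2(TPM + 0.1) over the 6 libraries, among 9866 genes of at least 5 TPM on average; the libraries fall on separate sides, so r is a description and was not tested. For Slfn4 the first was Oasl1, an interferon-induced antiviral gene, at 0.996, with 11.5, 16.4 and 39.9 TPM in the libraries labelled cKO and 23.5, 11.9 and 17.9 TPM in WT, followed by Slc16a13 and Traf6 at 0.991 and 0.981. For Slfn1 they were Ampd3 at 0.989, Oasl2 at 0.970 and Irf7, the amplifier of type I interferon, at 0.969. For Slfn5 they were Pde7b at 0.990, Irf9 at 0.980 and the clotting factor gene F10 at 0.978, and for Slfn8 F10 and Dtx3l, a ubiquitin ligase partner of Parp9, at 0.994 each and Samd8 at 0.993. For Slfn2 they were Asah2 at 0.998, and Sp140 and Samd8 at 0.996 each. Slfn9 was closest to 4930453N24Rik, Vrk2 and Stk3, at 0.990 to 0.993, and Slfn3 to Zcchc2, Zfr and Camsap1, at 0.990 to 0.991. Of the 9866 genes, 179 reached an r of 0.95 with Slfn3, 105 with Slfn9, 53 with Slfn2, 50 with Slfn8, 34 with Slfn5, 11 with Slfn1 and 8 with Slfn4.

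No marker of another cell type passed the limma test over all genes, as no gene did, and the lists differed in level and direction. Slfn1 and Slfn2 are also genes of T cells, and the 16 T and NK cell markers summed to 15.4, 22.8 and 22.5 TPM in the libraries labelled cKO and 9.37, 6.40 and 10.5 TPM in WT. Of these markers 11 of 12 tested were above 0 in log2 difference, and none was at 0 in every library. Their median log2 difference was 1.57, or 0.42 with a pseudocount of 1. The groups did not overlap for 10 of the 12 tested T and NK cell markers, against 5.12% of all genes. The part of these and of the following markers in the Schlafen values was not tested. Neutrophil markers summed to 7200 to 8320 TPM in the libraries labelled cKO and 5990 to 8700 TPM in WT, with 7 of 13 above 0, and macrophage and monocyte markers to 17200 to 24200 TPM in the libraries labelled cKO and 31500 to 45300 TPM in WT, most of it Lyz2, with 6 of 9 above 0. B cell markers summed to 58.5 to 99.3 TPM in the libraries labelled cKO and 92.9 to 120 TPM in WT, with 0 of 9 above 0. The markers of dendritic cells had 4 of 9 and those of stroma and endothelium 1 of 6 tested genes above 0. Cell cycle genes, listed because Slfn1 restrains the growth of mouse thymocytes, had a pooled log2 difference below 0 for 16 of 16, with a median of -0.13, and 0 passed. With a term for the side of the first principal component the median was -0.03. They summed to 2300, 2490 and 2670 TPM in the libraries labelled cKO and 3140, 3040 and 2070 TPM in WT. Every library of the positive side thus summed higher than every library of the negative side.

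Leaving out WT 3 raised the differences of Slfn5, Slfn8 and Slfn2, whose levels in WT 3 lay with the libraries labelled cKO. Without it the log2 difference was 0.56 ± 0.10 for Slfn5, 0.58 ± 0.11 for Slfn8 and 0.38 ± 0.07 for Slfn2 (SE), with unadjusted p-values of 0.00170, 0.00197 and 0.00247 in limma and adjusted p-values of 0.412, 0.412 and 0.423. Without WT 3 an unadjusted p under 0.05 was reached by 7.41% of all genes, 3.56% of all being higher in the libraries labelled cKO. In that fit the negative side holds only cKO 1 and cKO 2, and WT 1 and WT 2 are both on the positive side. Genotype and side are then largely confounded. Without both cKO 3 and WT 3, where genotype and side coincide and cannot be told apart, Slfn2, Slfn5 and Slfn8 were higher and Slfn3 lower in the libraries labelled cKO (limma adjusted p = 0.0330, 0.0327, 0.0344 and 0.0443), while 5.06% of all genes were higher, 5.15% lower and 10.2% either.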

How the data were processed

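Strand-specific total RNA libraries of 6 cultures, 3 labelled cKO and 3 WT, were compared. Build mm10 and the tools TopHat2 2.0.12, featureCounts, Subread, Picard 1.127, FastQC 0.11.2 and edgeR are listed in the submitters' processing notes; what each did, with which options and annotation, is not given in the sources used here. As deposited, the values are TPM per gene and library (each library sums to 1000000), a unit taken from the values. Per the file headers the authors also give log2 values (fold change and mean CPM), a score from a likelihood ratio test, and a p-value with its adjusted p-value. Judged from the TPM, their fold change is cKO over WT. Gene starts count from 0 there and are printed from 1.

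Whole reads were recovered from ratios of TPM between libraries, within 0.01 of a read for 100.0% of 94034 values above 0; 427 genes took their common factor from the authors' mean log2 CPM. A floor of 3 reads is 0.0388 CPM in the deepest library and 0.0573 CPM in the shallowest, counting error only. limma 3.58.1 in R 4.3.3 tested genotype on log2(TPM + 0.1) (two-sided, trend of variance on level), with Benjamini-Hochberg adjustment over the 13722 genes that reached 0.1 TPM in 3 libraries or more; all 7 members passed that filter in every library. With 3 against 3 samples the smallest exact permutation p is 0.1, so that test was not used. The fit and the read recovery were tested on simulated data. Promoters are RefSeq's (GRCm38.p6; all 7 members matched), gene models GENCODE's M21 on the same build; alignments used Biopython 1.88. No protein or genome sequence was used here. Members and gene lists were chosen with earlier results of these data known. Of each list the text names some of the 2 most abundant genes and of those with the smallest p, and the neighbours named are a choice among the nearest. Csf1r, Ap2b1 and Slfnl1, the pairs in ratios and the 9-base run were chosen after values or sequences were seen.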

Additional observations from a re-analysis of the deposited data

How the results depend on the processing

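Alternatives were pseudocounts of 1 and 0.01, a filter of 1 TPM and none, median-of-ratios scaling, limma-voom on the recovered reads, a replicate block, a term for the side of the first principal component, each library left out in turn, and cKO 3 and WT 3 left out together. Except for the last, each gave 0 called genes and 0 called members by limma. Without both cKO 3 and WT 3, 1400 genes and 4 members were called; the log2 differences were 0.36 for Slfn2, 0.50 for Slfn5, 0.52 for Slfn8 and -0.45 for Slfn3, and the direction turned for Slfn4 (-0.32) and Slfn9 (-0.12). With the term for the side Slfn3 turned to 0.16, Slfn9 was 0.28 (limma unadjusted p = 0.0129, adjusted p = 0.566) and Slfn4 0.28, beside 0.14 and 0.08 without it; the other 4 members lay between 0.18 and 0.31. Slfn10-ps turned to -0.44 without both libraries (limma adjusted p = 0.0416), -0.30 without cKO 3 and -0.12 without WT 3. Over the fits that omit 1 library, the difference spanned 0.07 to 0.54 for Slfn1, 0.17 to 0.38 for Slfn2, -0.31 to 0.11 for Slfn3, -0.32 to 0.37 for Slfn4, 0.10 to 0.56 for Slfn5, 0.20 to 0.58 for Slfn8 and 0.00 to 0.28 for Slfn9, and the members' median from 0.09 to 0.38. Slfn3 turned without cKO 1, cKO 2 or WT 1, and Slfn4 without cKO 3 or WT 2. In each case the cause was not tested. Genes at an unadjusted p under 0.05 numbered 299; they were 1017 without WT 3, 1042 with the term for the side, 4258 without both libraries, 168 with the filter of 1 TPM and 487 with none.

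Whether shared replicate numbers pair the libraries is not known. Deviations from the group means correlated at -0.239, -0.146 and -0.534 for numbers 1, 2 and 3. These values cannot settle it, because cKO 3 and WT 3 each lie apart from their own group, on opposite sides of the first principal component. The replicate block left 0 called genes and 0 called members, with 232 genes at an unadjusted p under 0.05 and a log2 difference of 0.24 for Slfn2. Each member had at least 504 reads per library. Slfn14 had 29 to 50 reads per library, and its log2 difference was -0.10 with a pseudocount of 1 and -0.36 with 0.01.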
